A study of Bos taurus with 90 samples.

Results

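Liver was compared with the lactating mammary gland by small RNA sequencing of 18 liver and 18 mammary gland samples, which are 36 of the 90 samples of the series and were chosen by their tissue label. The cows were mid-lactation Chinese Holstein dairy cows, and both tissues were taken at slaughter from 18 cows. Each tissue held 6 samples from cows fed rice straw, 6 from cows fed corn stover and 6 from cows fed alfalfa hay, with no untreated group, so diet is the only treatment and is balanced between the tissues. The other 54 samples came from rumen, duodenum and jejunum and were not analysed here. RNA came from pieces of whole tissue, so the samples mix every cell type present, and fewer cells of a type cannot be told apart from less RNA per cell. Levels are in CPM, a sample's reads on 1 miRNA scaled to a common total of reads on annotated miRNAs. Of 352 miRNAs listed in either tissue, 306 were listed in both and were tested, 24 were listed in liver only and 22 in mammary gland only.

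A microRNA (miRNA) is a short RNA that is cut from a hairpin precursor and guides Argonaute proteins to messenger RNAs that match its seed, which lowers their translation and stability. Precursors that lie side by side in the genome are often cut from 1 transcript, and either arm of a hairpin can give a mature miRNA, named 5p or 3p. Some miRNAs mark a cell type, such as miR-122 in hepatocytes, the miR-200 family in epithelia and miR-451 in red blood cells. Liver is built mostly of hepatocytes, while the lactating gland is built of secretory epithelium with myoepithelium, stroma, vessels and blood.

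The samples held between 2004942 and 7684530 reads on miRNAs in liver and between 937556 and 14328839 in mammary gland, with medians of 4427653 and 5570152.5. At these totals 3 reads were worth 0.39 to 1.5 CPM in liver and 0.21 to 3.20 CPM in mammary gland, so values near 1 CPM rest on few reads, and these limits cover counting error only. Some samples stood apart from the others of their tissue. The liver sample alfalfa hay 2 held 1525 CPM of miR-205 where the other 17 livers held 0 to 13. In mammary gland, rice straw 1, rice straw 5 and alfalfa hay 1 were the 3 shallowest samples and carried 144211 to 235766 CPM of miR-10b, against 49952 to 149561 in the other 15 samples. Mammary gland rice straw 3 had 429.5 CPM of miR-1 and 15723 CPM of miR-200a, each the highest of its tissue. Counts that lead a comparison are given below with and without these 5 samples where the difference is large.

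Both tissue labels were checked against their markers. The hepatocyte marker miR-122 was at 8671 CPM or more in every liver sample and at 48.5 CPM or less in every mammary gland sample. The hepatocyte markers miR-192 and miR-194 did not overlap between the tissues either, while miR-885 did. The epithelial markers miR-200a, miR-200b, miR-200c and miR-141 were higher in every mammary gland sample than in any liver sample. The epithelial markers miR-205 and miR-429 overlapped, with 1525 and 293 CPM in liver alfalfa hay 2 against lowest mammary gland values of 768 and 92.3. In mammary gland miR-122 was at 0 in 2 and above 1 CPM in 9 of the 18 samples. The markers miR-200a, miR-200b, miR-200c and miR-141 were above 0 in every liver sample.

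The levels of most miRNAs differed between the tissues. In a limma fit on log2(CPM + 1) with tissue and diet, 204 of the 306 miRNAs (66.7%) had an adjusted p under 0.05, which is what "called" means here. Of these, 93 (30.4%) were higher in liver and 111 (36.3%) higher in mammary gland. Differences are log2 fold changes, liver minus mammary gland, and they understate the change of miRNAs near 1 CPM because 1 CPM was added. For 19 miRNAs (6.21%) every liver sample exceeded every mammary gland sample, and for 17 (5.56%) every mammary gland sample exceeded every liver sample. Without the 5 samples that stood apart, these counts were 20 and 40. The median difference over all 306 miRNAs was -0.08.

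The balance between the 2 directions depended on the diet, the scaling and the samples. Without further scaling, 45.6% of the called miRNAs were higher in liver. With upper-quartile scaling 140 of 220 (63.6%) were, with trimmed-mean (TMM) scaling 114 of 216 (52.8%), and without the 3 shallowest mammary gland samples 76 of 218 (34.9%). Within single diets, 59.5% of 116 called miRNAs were higher in liver on rice straw, 26.1% of 199 on corn stover and 48.0% of 123 on alfalfa hay. The upper-quartile and TMM scalings moved the median difference from -0.08 to 0.26 and 0.04, and small differences are to be read against that shift.

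**Figure D1:**
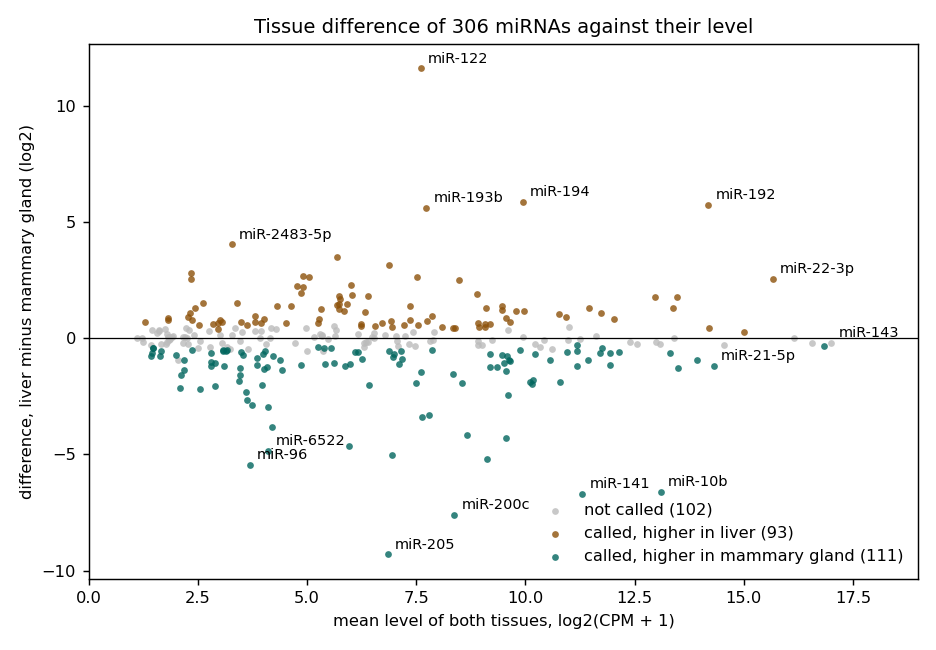
Each point is 1 of the 306 miRNAs, with its mean level in both tissues on the x axis in log2(CPM + 1) and its difference, liver minus mammary gland, on the y axis in log2 units. The 93 miRNAs called higher in liver and the 111 called higher in mammary gland spread over the whole range of levels, with miR-122 at the top at 11.64 and miR-205 at the bottom at -9.31.

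A few miRNAs made up most of the reads of either tissue, and most of those were the same. The 10 most abundant miRNAs took 76.5% ± 1.3 of the reads in liver and 71.0% ± 6.0 in mammary gland (SD, n = 18), and 7 of the 10 were shared. These 7 were miR-143, miR-148a, miR-30a-5p, miR-26a, miR-27b, miR-126-5p and miR-22-3p. Liver alone had miR-192, let-7f and miR-101 among its 10, and mammary gland alone had miR-10b, miR-21-5p and miR-141.

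Among the shared 7, the levels of miR-143, miR-148a and miR-30a-5p overlapped broadly between the tissues. The smooth muscle miRNA miR-143 ran from 81811 to 177119 CPM in liver with a median of 124174, compared with 69396 to 226993 in mammary gland with a median of 124723, and the difference of -0.18 ± 0.12 (SE) was not called (adjusted p = 0.184). For miR-148a, one of the most abundant miRNAs of milk, liver ran from 83368 to 120485 CPM with a median of 105695, and mammary gland from 86639 to 216977 with a median of 124649. Its difference of -0.34 ± 0.10 (adjusted p = 0.00286) was called but was 0.05 and not called with upper-quartile scaling. It was not called with TMM scaling, edgeR, DESeq2 or in a separate fit of any single diet either. In the joint limma fit it was called on rice straw (-0.56, adjusted p = 0.00571) and not on the other diets. The levels of miR-30a-5p (-0.18, adjusted p = 0.0785) and miR-26a (0.02, adjusted p = 0.922) were not called. For miR-26a, the value without the 3 shallowest mammary gland samples was -0.24 and was called. Those samples held 22579 to 29643 CPM and the other 15 held 56357 to 123961.

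The miRNAs of the hepatocyte list were higher in liver. The list was chosen with earlier results of these data known, so its counts describe its members and are no independent support. All 8 of the list (miR-122, miR-192, miR-194, miR-215, miR-885, miR-483, miR-22-3p and miR-101) were called in that direction, beside 30.4% of all miRNAs. Of the 8, 7 did not overlap between the tissues, beside 6.21% of all miRNAs. Their median difference was 2.69, against -0.08 over all miRNAs. Together they took 30.8% ± 2.5 of the reads in liver and 3.52% ± 1.40 in mammary gland (SD, n = 18). Most of the liver share came from miR-192 and the broadly expressed miR-22-3p, with means of 137790 and 129070 CPM.

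The widest difference in this direction belonged to miR-122, which in hepatocytes tunes lipid and cholesterol metabolism. Its liver levels ran from 8671 to 12721 CPM with a median of 11038, and its mammary gland levels from 0 to 48.5 with a median of 1.0. The mammary gland samples with the most were rice straw 3 at 48.5, alfalfa hay 4 at 34.8 and corn stover 5 at 29.7 CPM. All liver samples lay within a narrow band, and the difference was 11.64 ± 0.42 (SE, adjusted p = 5.94e-25).

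The related miR-192 and miR-215 share a seed, and each shares a transcript with a copy of miR-194, and all are prominent in liver, gut and kidney of mammals. In liver, miR-192 was the most abundant miRNA, from 113678 to 188688 CPM with a median of 133989, and in mammary gland it ran from 1839 to 3210 with a median of 2503. Levels of miR-194 were 6244 to 8777 CPM in liver (median 7715) and 43.9 to 234 in mammary gland (median 131). Both were separated without overlap, by 5.75 ± 0.09 (adjusted p = 1.55e-38) and 5.89 ± 0.15 (adjusted p = 4.30e-30). The third, miR-215, ran from 552 to 1433 CPM in liver (median 859), compared with 22.9 to 529 in mammary gland (median 135), a difference of 2.52 ± 0.24 (adjusted p = 9.44e-12). In mammary gland its level was therefore closer to that of miR-194 than to that of miR-192, and reads of the near-identical miR-192 and miR-215 may have been split between them by the alignment.

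Both miR-22-3p and miR-101, broadly expressed miRNAs of which the latter represses the chromatin enzyme EZH2, were abundant in either tissue and higher in liver. Levels of miR-22-3p ran from 85657 to 175255 CPM in liver (median 127174), compared with 3438 to 45864 in mammary gland (median 26192), a difference of 2.58 ± 0.21 (adjusted p = 4.90e-14). For miR-101 they ran from 13076 to 27259 (median 22088) and from 2649 to 10987 (median 6348), a difference of 1.77 ± 0.14 (adjusted p = 2.60e-14). Neither overlapped between the tissues. Among the less abundant members, miR-483, which lies within the gene of the growth factor IGF2, ran from 7.35 to 21.3 CPM in liver and from 0 to 2.74 in mammary gland (2.80 ± 0.15, adjusted p = 5.85e-19). The last, miR-885, overlapped between the tissues, at 61.1 to 160 CPM in liver and 14.9 to 157 in mammary gland, with a difference of 0.53 ± 0.22 (adjusted p = 0.0314) that was -0.17 in the cows fed corn stover alone.

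**Figure D2:**
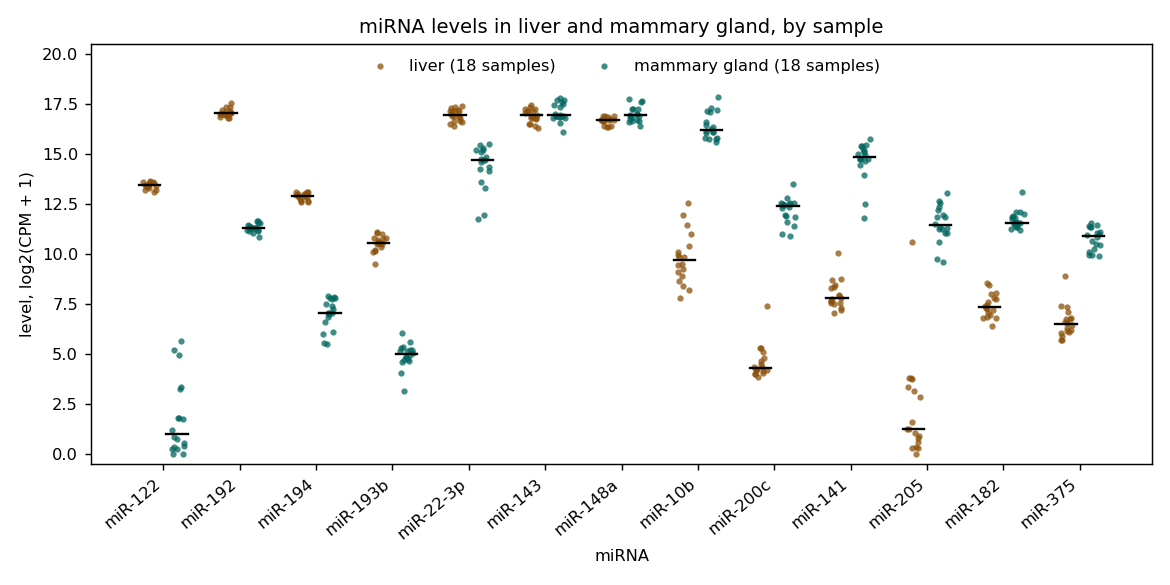
Each point is 1 sample, with liver at the left and mammary gland at the right of each miRNA, the level on the y axis in log2(CPM + 1), and the median of the 18 samples as a black line. The livers lie above the mammary glands for miR-122, miR-192, miR-194, miR-193b and miR-22-3p, the tissues overlap for miR-143 and miR-148a, and the order is turned for miR-10b, miR-200c, miR-141, miR-182 and miR-375, while for miR-205 a single liver at 1525 CPM reaches the mammary gland samples.

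The pair miR-193b and miR-365-3p, cut from neighbouring hairpins and studied in muscle and brown fat, was also higher in liver. Levels of miR-193b ran from 717 to 2208 CPM in liver (median 1501), compared with 7.86 to 65.8 in mammary gland (median 30.8), a difference of 5.63 ± 0.18 (adjusted p = 6.12e-27). For miR-365-3p they ran from 243 to 560 (median 341) and from 9.07 to 78.5 (median 43.5), a difference of 3.15 ± 0.18 (adjusted p = 2.80e-18). The other arm of that hairpin, miR-365-5p, was listed in liver only, at 3.27 to 7.87 CPM. The related miR-193a-3p, encoded elsewhere, did not follow them, with medians of 209 CPM in liver and 263 in mammary gland (-0.12, adjusted p = 0.722). Its partner miR-193a-5p was called higher in mammary gland by a small margin (-0.55, adjusted p = 0.0494), which was lost with either other scaling.

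The 12 miRNAs that differed most toward liver also included miR-2483-5p, miR-874, miR-144, miR-2285f and miR-455-3p. Levels of miR-2483-5p, annotated in cattle, varied widely among livers, from 5.43 to 88.0 CPM (median 45.3), and lay between 0.45 and 3.65 in mammary gland (4.07 ± 0.26). For miR-874 the liver ran from 112 to 248 CPM and mammary gland from 5.89 to 45.8 (3.51 ± 0.17). The cattle miRNA miR-2285f ran from 360 to 646 CPM in liver and from 26.7 to 117 in mammary gland (2.66 ± 0.16), and miR-455-3p, known from cartilage, from 44.7 to 275 and from 3.20 to 30.8 (2.64 ± 0.24). None of these 4 overlapped between the tissues, whereas miR-144 did.

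Most miRNAs of the epithelial list were higher in mammary gland. This list too was chosen with earlier results of these data known, so its counts are no independent support. Of 13 tested members of a list of mammary epithelial and milk miRNAs, 11 were called higher in mammary gland, 1 (miR-31) higher in liver and 1 (miR-30a-5p) neither. Over all miRNAs, 36.3% were called higher in mammary gland and 30.4% higher in liver. The median difference of the 13 was -4.63. Of them, 7 did not overlap between the tissues and were higher in mammary gland, beside 5.56% of all miRNAs. The last member of the list, miR-203, was listed in neither tissue.

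The 5 members of the miR-200 family (miR-200a, miR-200b, miR-200c, miR-141 and miR-429) hold epithelial identity by repressing ZEB1 and ZEB2. All 5 were called higher in mammary gland, beside 36.3% of all miRNAs. Together they summed to between 247 and 1896 CPM in liver (median 404) and between 10598 and 67448 in mammary gland (median 42444). The most abundant was miR-141, at 3593 to 54985 CPM in mammary gland (median 29566) and 130 to 1038 in liver (median 218), a difference of -6.70 ± 0.25 (adjusted p = 9.60e-25). Its neighbour miR-200c ran from 1873 to 11616 CPM (median 5336) and from 13.1 to 166 (median 18.5), a difference of -7.59 ± 0.25 (adjusted p = 1.08e-26).

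The other 3 members are cut from a second site in the genome. Mammary gland levels of miR-200a ran from 860 to 15723 CPM (median 3885) and liver levels from 53.7 to 334 (median 86.0), a difference of -5.21 ± 0.27 (adjusted p = 9.69e-20). For miR-200b they ran from 147 to 1220 (median 976) and from 10.9 to 65.2 (median 19.8), a difference of -5.04 ± 0.22 (adjusted p = 5.50e-22). Only miR-429 overlapped between the tissues in this family, at 92.3 to 1435 CPM (median 886) and 32.3 to 293 (median 52.7), a difference of -3.40 ± 0.26 (adjusted p = 1.49e-14). By the medians, miR-141 exceeded its neighbour miR-200c in both tissues.

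The largest difference toward mammary gland was that of miR-205, a miRNA of stratified and basal epithelium. Its mammary gland levels ran from 768 to 8442 CPM with a median of 2744, and its liver levels from 0 to 1525 with a median of 1.38. The difference was -9.31 ± 0.54 (adjusted p = 2.80e-18). The overlap came from 1 sample, liver alfalfa hay 2, whose 1525 CPM was 55.6% of the mammary gland median. That sample was also the highest liver for miR-200a at 334, miR-200b at 65.2, miR-200c at 166, miR-141 at 1038, miR-429 at 293, miR-375 at 475 and miR-182 at 367 CPM, or between 3.12% and 33.1% of the mammary gland medians. Among these 7 the highest shares were those of miR-429 and miR-375. All 7 were also held by every other liver at lower levels, and the source of this RNA was not tested. Without liver alfalfa hay 2, the livers ran from 0 to 13 CPM of miR-205 and did not overlap with mammary gland.

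The miR-183 cluster (miR-183, miR-96 and miR-182), 1 transcript known from sensory cells and secretory epithelia, was called higher in mammary gland for all 3 members. It separated the tissues without overlap, beside 36.3% called and 5.56% without overlap in that direction over all miRNAs. Its most abundant member in either tissue was miR-182, at 2341 to 8777 CPM in mammary gland (median 3027) and 82.6 to 367 in liver (median 161), a difference of -4.30 ± 0.17 (adjusted p = 1.43e-23). Levels of miR-183 ran from 54.9 to 2391 CPM in mammary gland (median 249) and from 4.6 to 34.0 in liver (median 11.9), a difference of -4.63 ± 0.35 (adjusted p = 8.31e-15). For miR-96 they ran from 21.6 to 191 (median 98.6) and from 0.21 to 2.48 (median 0.94), a difference of -5.44 ± 0.20 (adjusted p = 5.24e-25). Although the 3 share a transcript, miR-183 varied far more among mammary gland samples than miR-182 did.

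Among the remaining epithelial and secretory miRNAs, miR-375, known from pancreatic islets and secretory epithelium, ran from 952 to 3029 CPM in mammary gland (median 1877) and from 49.9 to 475 in liver (median 88.4), a difference of -4.17 ± 0.22 (adjusted p = 9.69e-20). Levels of miR-34c, a miRNA induced by p53, overlapped, at 6.40 to 151 and 1.39 to 17.4 CPM (-2.95 ± 0.29, adjusted p = 2.44e-11). The squamous epithelial miRNA miR-31 went the other way, with medians of 523 CPM in mammary gland and 687 in liver. Its difference of 0.49 ± 0.21 (adjusted p = 0.0369) was -0.30 in cows fed corn stover alone, and it was not called without liver alfalfa hay 2. The 12 largest differences toward mammary gland also held miR-6522 and miR-190a. The former ran from 62.5 to 153 CPM in mammary gland and from 1.02 to 4.35 in liver (-4.83 ± 0.14), and the latter overlapped, at 11.7 to 597 and 1.70 to 17.1 CPM (-3.80 ± 0.33).

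The miRNAs that lie within the HOX gene clusters differed in size of change. The most abundant in mammary gland, miR-10b from the HOXD cluster, ran from 49952 to 235766 CPM (median 74430), and in liver from 219 to 6005 (median 817), a difference of -6.61 ± 0.31 (adjusted p = 2.97e-21). From the HOXB cluster, miR-10a ran from 2466 to 6892 CPM in mammary gland (median 4154) and from 1516 to 8685 in liver (median 2888). Its difference of -0.42 ± 0.17 (adjusted p = 0.0290) was not called with either other scaling. In liver miR-10a exceeded miR-10b by the medians, and in mammary gland the order was turned, although these 2 near-identical miRNAs may share reads. Both miR-196a, at 37.3 to 282 CPM, and miR-196b, at 19.2 to 130, were listed in mammary gland only, and miR-615 in neither tissue.

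The 3 shallowest mammary gland samples held 3 of the 4 highest mammary gland values of miR-10b, and lower values of many other miRNAs. They had 1295 to 2396 CPM of miR-126-3p where the other 15 had 3661 to 13853, and 411 to 647 CPM of miR-29c where the others had 924 to 3560. The other 15 did not overlap with liver in miR-10b either.

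**Figure D3:**
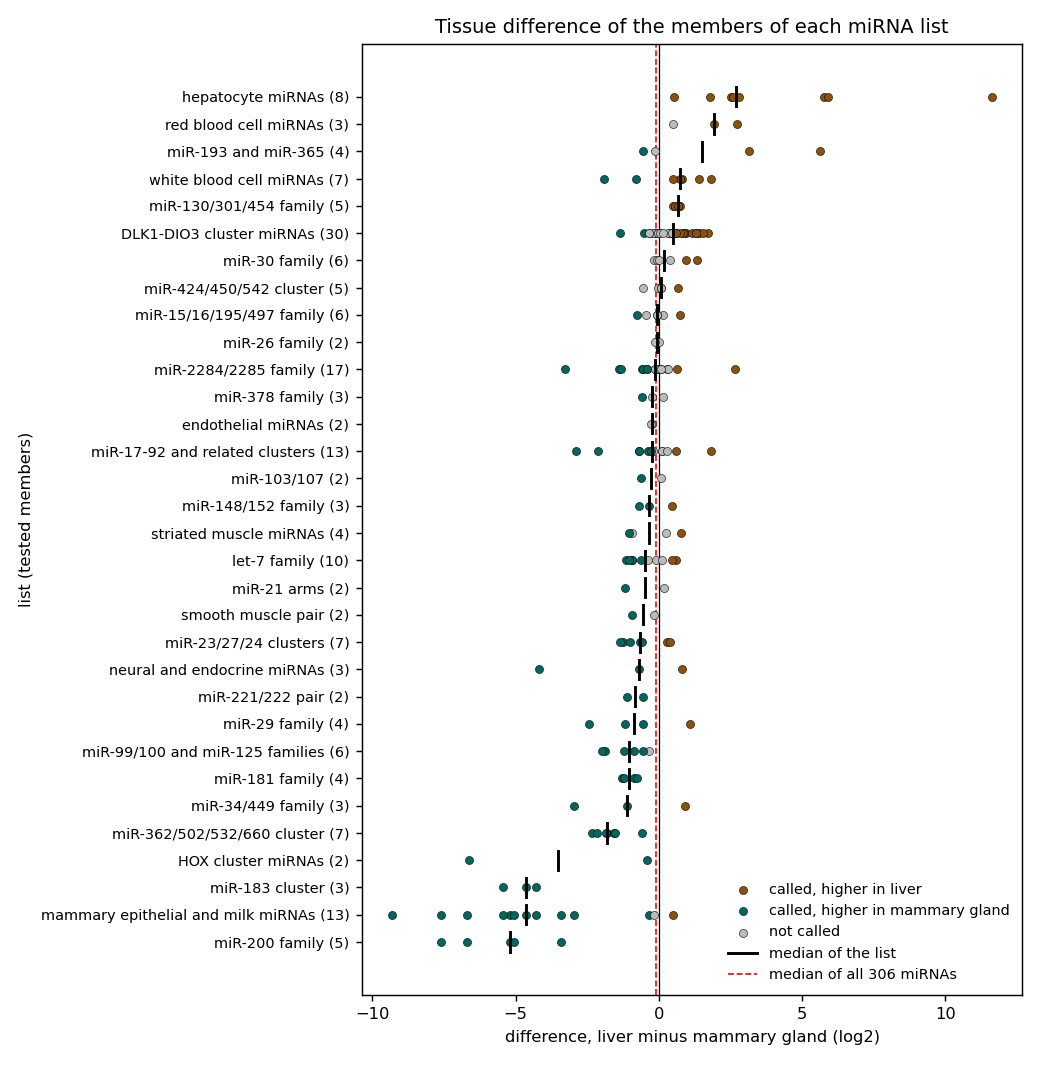
Each point is 1 tested member of a list, placed by its difference, liver minus mammary gland, in log2 units on the x axis, and coloured by its call, with the list's median as a black bar and the median of all 306 miRNAs as a dashed line. The hepatocyte list stands furthest right, with a median of 2.69, and the miR-200 family furthest left, with a median of -5.21, while most other families lie near the dashed line at -0.08.

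Of the blood cell miRNAs, most were called higher in liver over all diets, beside 30.4% of all miRNAs. Of the 3 red blood cell miRNAs, miR-451 ran from 303 to 2471 CPM in liver (median 989), compared with 53.7 to 564 in mammary gland (median 251), a difference of 1.91 ± 0.25 (adjusted p = 1.59e-08). Its neighbour miR-144 ran from 22.9 to 158 CPM (median 77.6) and from 0.65 to 26.7 (median 14.9), a difference of 2.71 ± 0.25 (adjusted p = 3.80e-12). The third, miR-486, which muscle also makes, was not called (0.49, adjusted p = 0.0511). The 3 together summed to 1154 to 6661 CPM in liver and 1070 to 4241 in mammary gland, so the tissues overlapped throughout.

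Of 7 white blood cell miRNAs, 5 were called higher in liver and 2 higher in mammary gland, where 30.4% and 36.3% of all miRNAs were. The granulocyte miRNA miR-223 had medians of 92.2 and 27.7 CPM in liver and mammary gland (1.83 ± 0.26, adjusted p = 8.37e-08), and miR-146a, which damps inflammatory signalling, had medians of 1081 and 467 (1.40 ± 0.21, adjusted p = 3.51e-07). The most abundant, miR-142-5p, had medians of 5555 and 3985 CPM (0.82, adjusted p = 0.00733). The lymphocyte miRNA miR-155 was the reverse, with medians of 91.5 and 156 (-0.79, adjusted p = 6.56e-05), as was miR-146b, with medians of 74.5 and 303 (-1.91, adjusted p = 2.40e-07). Without the 3 shallowest mammary gland samples, 3 were called higher in liver and 2 in mammary gland, beside 76 and 142 of all 306 miRNAs. Within corn stover alone the counts were 2 and 3, with miR-150 at -0.80, beside 52 and 147 of all 306. The list summed to 4862 to 12957 CPM in liver and 1252 to 11133 in mammary gland, and what blood or immune cells contributed to any other difference was not tested.

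The miRNAs of vessels and muscle were called in either direction or not at all. Both endothelial arms, miR-126-3p (-0.22, adjusted p = 0.337) and miR-126-5p (-0.27, adjusted p = 0.125), missed the threshold. Without the 5 samples that stood apart both were called higher in mammary gland, beside 137 of all 306 miRNAs. The smooth muscle miRNA miR-145 was called higher in mammary gland, with medians of 513 and 1307 CPM in liver and mammary gland (-0.94 ± 0.19, adjusted p = 5.34e-05), unlike miR-143, with which it shares a transcript. Among striated muscle miRNAs, miR-133a was called higher in liver (0.76, adjusted p = 0.00421) and miR-499 higher in mammary gland (-1.03, adjusted p = 2.33e-04). The defining miR-1 had a median of 2.07 CPM in liver and 4.23 in mammary gland and was not called, and miR-206, miR-208a and miR-208b were listed in neither tissue.

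Families with broad expression split between the tissues. The let-7 family, which times development and differentiation, had 5 of 10 members called higher in mammary gland and 2 higher in liver, beside 36.3% and 30.4% of all miRNAs. Within corn stover alone 9 were called higher in mammary gland and 0 in liver, and within rice straw alone 1 and 2. Over all 306 miRNAs these counts were 147 and 52 on corn stover, and 47 and 69 on rice straw. Among them, let-7a-5p (medians of 11378 and 26410 CPM in liver and mammary gland), let-7b (2554 and 6709) and miR-98 (489 and 1220) were higher in mammary gland by -0.94 to -1.15, whereas let-7f (23153 and 18797) and let-7d (656 and 551) were higher in liver by 0.47 and 0.61. In the cows fed corn stover alone both of the latter turned to -0.28 and -0.38. Liver was thus led by let-7f and mammary gland by let-7a-5p, which differ by few bases and may share reads.

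Of 6 members of the miR-99/100 and miR-125 families, 5 were called higher in mammary gland and none higher in liver, beside 36.3% and 30.4% of all miRNAs. Levels of miR-99b ran from 363 to 984 CPM in liver (median 578), compared with 894 to 8605 in mammary gland (median 2082), a difference of -1.97 ± 0.21 (adjusted p = 1.04e-10). For miR-99a-5p the medians were 536 and 1927 CPM (-1.87 ± 0.24, adjusted p = 1.01e-08), and for miR-125a 1512 and 4449 (-1.20 ± 0.19, adjusted p = 6.60e-07). The exception was miR-100, with medians of 1121 and 1408 (-0.36, adjusted p = 0.160).

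The miR-29 family, which represses collagen and other matrix genes, was divided. Liver had more miR-29a, from 3685 to 6243 CPM (median 5042) against 426 to 5333 in mammary gland (median 2876), a difference of 1.09 ± 0.19 (adjusted p = 6.64e-06). Mammary gland had more miR-29c, from 411 to 3560 CPM (median 2401) against 253 to 487 in liver (median 327), a difference of -2.43 ± 0.18 (adjusted p = 4.34e-15). Both miR-29b (-0.55) and miR-29d (-1.18) were also called higher in mammary gland. Over all miRNAs, 30.4% were called higher in liver and 36.3% higher in mammary gland. In liver the level of miR-29a was far above that of miR-29c by the medians, and in mammary gland the 2 were near each other.

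The miR-181 family, known from lymphocyte development, was called higher in mammary gland for all 4 members, by -0.75 to -1.29, beside 36.3% of all miRNAs. In separate fits of single diets, 0 of the 4 were called on rice straw, 4 on corn stover and 2 on alfalfa hay. Of all 306 miRNAs, 47, 147 and 64 were called higher in mammary gland in these fits. The most abundant member, miR-181a, ran from 4212 to 13002 CPM in liver (median 6833), compared with 5868 to 50560 in mammary gland (median 18016). The pair miR-221 and miR-222 followed, by -1.11 (adjusted p = 1.67e-04) and -0.55 (adjusted p = 0.0321), the latter not called with upper-quartile scaling. In separate fits of single diets the pair was called on corn stover only. Both arms of miR-21 were examined, and miR-21-5p, induced in growth and injury, ran from 10236 to 19667 CPM in liver (median 13273), compared with 12837 to 51621 in mammary gland (median 35103), a difference of -1.18 ± 0.13 (adjusted p = 1.24e-10). The lesser arm miR-21-3p had medians of 75.3 and 58.9 CPM and a difference of 0.19 (adjusted p = 0.475).

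All 7 tested members of the cluster of miR-362, miR-500, miR-502, miR-532 and miR-660 were called higher in mammary gland, beside 36.3% of all miRNAs. Of the 7, 3 did not overlap, beside 5.56% of all miRNAs in that direction. The most abundant, miR-660, ran from 766 to 1065 CPM in liver (median 951), compared with 1454 to 8596 in mammary gland (median 3399), a difference of -1.86 ± 0.15 (adjusted p = 6.86e-14). For miR-532 the levels ran from 140 to 273 CPM (median 191) and from 411 to 717 (median 551), a difference of -1.53 ± 0.11 (adjusted p = 3.73e-15). The smallest difference was that of miR-502b at -0.59, which was not called with upper-quartile or TMM scaling.

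The family of miR-130, miR-301 and miR-454 was called higher in liver for all 5 members, by 0.49 to 0.73, beside 30.4% of all miRNAs. This was a small shift, with 3 members called without the 3 shallowest mammary gland samples and none within corn stover alone. Of all 306 miRNAs, 76 and 52 were called higher in liver in these settings. In the miR-30 family, miR-30e-5p (medians of 16830 and 9218 CPM, 1.32 ± 0.15, adjusted p = 1.23e-09) and its neighbour miR-30c (2746 and 1657, 0.94 ± 0.17, adjusted p = 1.23e-05) were called higher in liver. The other 4 were not called, so the share is near the 30.4% of all miRNAs. Among the 13 tested miRNAs of miR-17-92 and its related clusters, which drive proliferation, 2 were called higher in liver and 6 higher in mammary gland, beside 30.4% and 36.3% of all miRNAs. The counts were 5 and 4 with upper-quartile scaling and 1 and 10 within corn stover alone, beside 140 and 80, and 52 and 147, of all 306 miRNAs. These included miR-92a at medians of 15629 and 4373 CPM (1.81 ± 0.13, adjusted p = 2.55e-15) and, in the other direction, miR-363 at 3.92 and 36.6 CPM (-2.88 ± 0.19, adjusted p = 2.95e-16) and miR-106a at 1.14 and 11.5 CPM (-2.14 ± 0.26, adjusted p = 3.19e-09). The median of that list was -0.25, and 0.13 with upper-quartile scaling, against -0.08 and 0.26 over all miRNAs.

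The medians of the family of miR-15, miR-16, miR-195 and miR-497 (-0.05), the miR-26 family (-0.06), the miR-378 family (-0.23), the pair of miR-103 and miR-107 (-0.28) and the cluster of miR-424, miR-450 and miR-542 (0.06) all lay near that of all miRNAs. In these lists at most 1 member was called in each direction over all diets. Within corn stover alone all 6 members of the miR-15 and miR-16 family were called higher in mammary gland (median -0.74), beside 147 of all 306 miRNAs (median -0.43). Within rice straw alone their median was 0.82, against 0.24 over all miRNAs. The first 4 list medians were above 0 with upper-quartile scaling, where that of all miRNAs was 0.26. In the family of miR-148 and miR-152, miR-148b (-0.68) joined miR-148a in being called higher in mammary gland, and miR-152 (0.46) was called higher in liver. Among the miR-34 relatives, miR-34a (-1.11) and miR-34c were called higher in mammary gland and miR-449a (0.93) higher in liver. Of 3 neural and endocrine miRNAs, miR-7 (-0.69) and miR-375 were called higher in mammary gland and miR-9-5p (0.80) higher in liver. Beside these small lists, 30.4% of all miRNAs were called higher in liver and 36.3% higher in mammary gland. In the miR-23/27/24 clusters, 5 of 7 members were called higher in mammary gland, led by miR-27a-5p (-1.35) and miR-23a (-1.25), beside 36.3% of all miRNAs. Both miR-27b and miR-24 were called higher in liver, by 0.28 and 0.39.

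The imprinted DLK1-DIO3 cluster, a maternally expressed group of many hairpins, was called mostly toward liver. Of 30 tested members, 14 were called higher in liver, 2 higher in mammary gland and 14 neither, beside 30.4% and 36.3% of all miRNAs, and their median was 0.49. With upper-quartile scaling, 21 were called higher in liver and 1 in mammary gland, beside 140 and 80 of all 306 miRNAs. Without the 3 shallowest mammary gland samples the counts were 10 and 4, beside 76 and 142 of all 306. The most abundant member, miR-127, had medians of 4472 CPM in liver and 5589 in mammary gland and was not called (-0.14, adjusted p = 0.543), and neither was miR-411a (2201 and 2425, adjusted p = 0.926). The called members were less abundant, such as miR-154c (90.7 and 37.6 CPM, 1.71 ± 0.29, adjusted p = 3.87e-06), miR-410 (105 and 52.6, 1.15 ± 0.22, adjusted p = 1.64e-05) and miR-543 (8.79 and 3.61, 1.53 ± 0.24, adjusted p = 7.13e-07). In the other direction stood miR-379 (11.6 and 34.4 CPM, -1.35 ± 0.31, adjusted p = 2.29e-04), whose highest mammary gland sample was rice straw 3 at 626 CPM.

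The large ruminant family of miR-2284 and miR-2285 had 17 tested members, of which 2 were called higher in liver, 6 higher in mammary gland and 9 neither, with a median of -0.12. These shares are near or below those of all miRNAs (30.4% and 36.3%). With upper-quartile scaling the counts turned to 7 and 3 and the median to 0.21, beside 140 and 80 of all 306 miRNAs with a median of 0.26. Its extremes were miR-2285f toward liver, described above, and miR-2285t toward mammary gland, at 34.5 to 129 CPM in liver (median 68.4) and 96.0 to 2842 in mammary gland (median 809), a difference of -3.29 ± 0.25 (adjusted p = 1.54e-14). Next was miR-2284x, which did not overlap, at 355 to 612 CPM and 624 to 3771 (-1.38 ± 0.15, adjusted p = 2.88e-10). Members of this family are near-identical, and their separate values depend on how shared reads were assigned.

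Calls were also compared between neighbouring hairpins. By the RefSeq gene table of assembly ARS-UCD2.0, which matched 304 of the 306 miRNAs and was used only for neighbourhood, 137 tested miRNAs fell into 45 groups whose gene starts lay at most 10 kb from the next. Of these groups, 8 had at least 2 called members that were all higher in liver. A further 12 had at least 2 that were all higher in mammary gland. Calls in both directions were held by 11 groups, a single call by 10 and none by 4. Over all 306 miRNAs, 30.4% were called higher in liver and 36.3% higher in mammary gland. Arms of a hairpin count as separate members, and a miRNA with copies at several sites counts in each group. The groups toward liver included miR-192 with miR-194, miR-193b with miR-365-3p and miR-144 with miR-451. Those toward mammary gland included miR-141 with miR-200c, miR-200a with miR-200b and miR-429, and miR-182 with miR-183 and miR-96.

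Some groups were split. Beside miR-92a (1.81), which has a copy in each of 2 groups, the neighbours miR-363, miR-106a and miR-19b were all called higher in mammary gland. In another, miR-29a was higher in liver and miR-29b, which also has a second copy beside miR-29c, higher in mammary gland. A further group, named here after its values were seen, held miR-425-5p (0.97, higher in liver) and the other arm of the same hairpin, miR-425-3p (-1.24, higher in mammary gland). The arms of miR-2411, also singled out after their values were seen, were likewise called in opposite directions, with 0.81 for the 3p arm and -1.57 for the 5p arm. The files list miR-24 and miR-24-3p separately, and these too were called in opposite directions, 0.39 and -0.99.

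Samples of mammary gland differed more from each other than samples of liver. The SD of log2(CPM + 1) within diets was larger in mammary gland for 272 of 306 miRNAs, with medians of 0.74 in mammary gland and 0.38 in liver. Among the 119 miRNAs with a mean of at least 100 CPM in both tissues, where counting error is small, it was larger for 108, with medians of 0.71 and 0.29. The spread was not the same under each diet. In mammary gland its median was 0.93 for rice straw, 0.71 for alfalfa hay and 0.32 for corn stover, against 0.36, 0.37 and 0.34 in liver. The rice straw and alfalfa hay groups hold the 3 shallowest samples, and without these the mammary gland median over all diets was 0.48, with 207 of 306 miRNAs more variable there than in liver. Within the hepatocyte list, the SD in liver ran from 0.13 for miR-122 to 0.43 for miR-885.

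**Figure D4:**
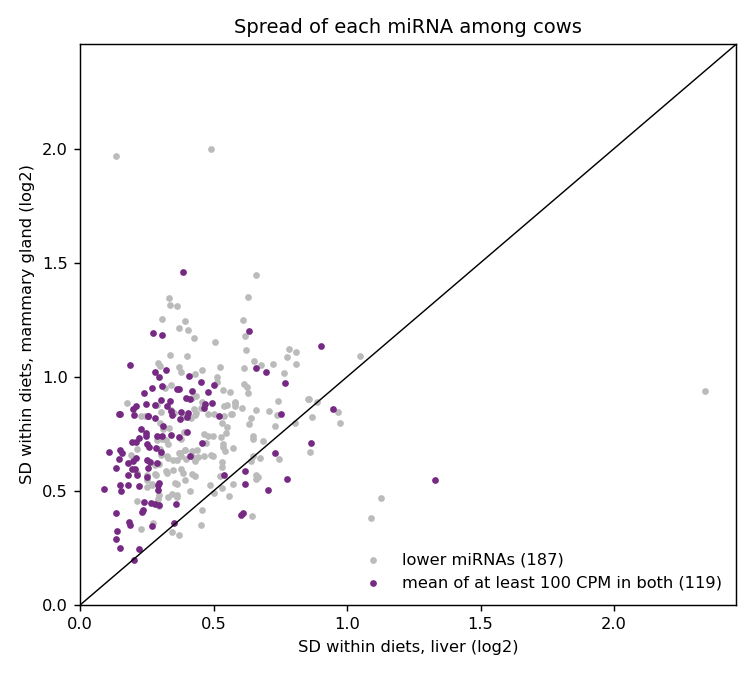
Each point is 1 of the 306 miRNAs, with the SD of its log2(CPM + 1) within diets in liver on the x axis and in mammary gland on the y axis, and the line marks equal SD. Most points, 272 of 306, lie above the line, and the 119 miRNAs with at least 100 CPM in both tissues do so as well for 108 of them, while miR-205 lies far to the right with its liver sample at 1525 CPM.

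The tissue difference itself was compared between the diets. The median difference over the 306 miRNAs was 0.24 in cows fed rice straw, -0.43 in cows fed corn stover and -0.02 in cows fed alfalfa hay. The limma test of tissue by diet called 23 of 306 miRNAs (7.52%), and 88 had an unadjusted p under 0.05. Of the 23, 21 had their lowest difference on corn stover and 21 their highest on rice straw, which is also the order of the medians over all 306 miRNAs. For all 23 the diet means spanned a wider range in mammary gland than in liver, narrowly for miR-146b (1.57 and 1.55). The median ranges were 1.69 and 0.22 on the log2 scale. The 23 were selected by this test from the same values, so these counts only describe them, and the ranges were not compared over all 306 miRNAs.

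The smallest adjusted p, 0.0272, was shared by 10 miRNAs, and of these miR-128, miR-628, miR-15a, miR-362-3p and miR-29c had the smallest unadjusted p. The difference of miR-128, a miRNA of neurons and muscle, was 2.94 on rice straw, 0.73 on corn stover and 1.75 on alfalfa hay, so the sign held. That of miR-15a, which represses BCL2 and cyclins, was 1.83, -0.38 and 0.71, and that of miR-628 was 0.57, -1.59 and -0.66, so the sign turned. For miR-29c it was -1.46, -3.31 and -2.51, and for miR-362-3p -1.15, -3.34 and -2.49. Of the 23, 12 kept their sign under all 3 diets, among them miR-194 (6.51, 5.17 and 5.99) and miR-22-3p (3.29, 1.51 and 2.93).

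These diet calls depended on the samples and the scaling. Leaving out replicate 4 or replicate 5 of every group left 0 calls, with 75 and 56 miRNAs at an unadjusted p under 0.05, while leaving out mammary gland rice straw 3 alone gave 70. Upper-quartile scaling left 4, TMM scaling 6, edgeR on the recovered reads 12 and DESeq2 43. The rice straw mammary gland group holds 2 of the 3 shallowest samples, and without all 3 the count was 46 and included the 23.

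**Figure D5:**
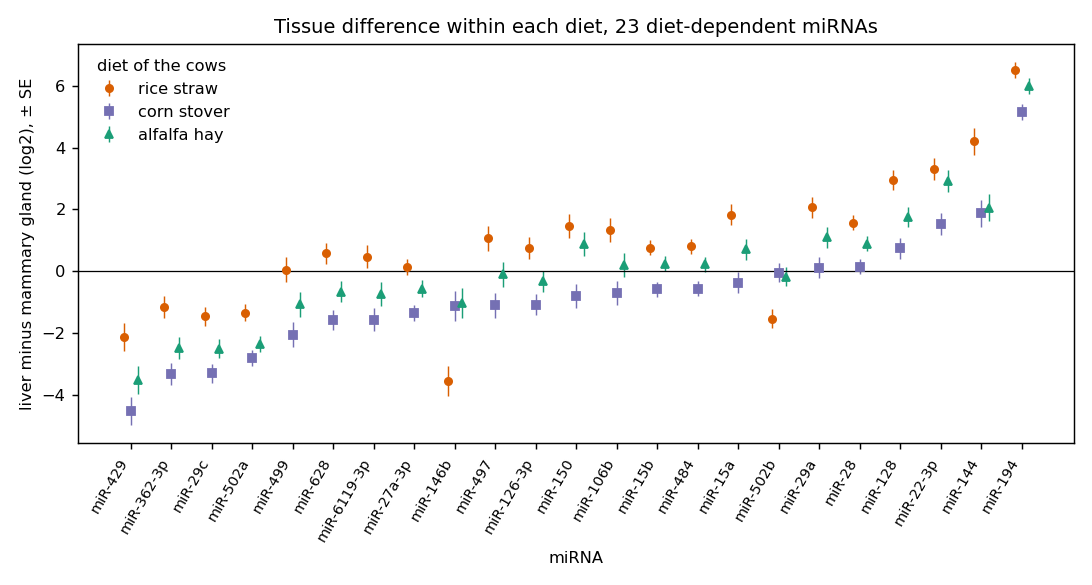
For each of the 23 diet-dependent miRNAs, the difference, liver minus mammary gland, is shown on the y axis in log2 units for cows fed rice straw, corn stover and alfalfa hay (n = 6 a tissue and diet). Bars are the SE of the joint limma fit, which pools the spread of a miRNA over all groups and is the same for each diet. They do not show the wider spread of mammary gland on rice straw. Rice straw gives the highest and corn stover the lowest value for 21 of them each, as for miR-128 at 2.94 and 0.73, and miR-146b and miR-502b stand out with their lowest values on rice straw.

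The miRNAs listed in a single tissue were mostly scarce. A miRNA that a tissue does not list has no value there, so no fold change or test is given. The 24 listed in liver only summed to 78.8 ± 24.5 CPM (SD, n = 18), 1 of them had a mean of at least 10 CPM and 20 had a mean under 3 CPM. The highest was miR-2483-3p, the other arm of miR-2483-5p, at 3.74 to 56.3 CPM (median 30.6), followed by miR-2415-3p (median 6.46), miR-365-5p (6.06), miR-2474 (2.93) and miR-433 (2.13). The 22 listed in mammary gland only summed to 284 ± 91.0 CPM, with 5 at a mean of at least 10 CPM and 15 under 3 CPM. Most of that sum was miR-196a (median 144) and miR-196b (54.4) of the HOX clusters, followed by miR-2284j (12.3), miR-135a (8.58) and miR-409a (8.88). Members of clusters related to miR-17-92, miR-18b (median 2.21) and miR-20b (7.25), as well as miR-34b (6.10), the neighbour of miR-34c, were also listed in mammary gland only.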

How the data were processed

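The 36 samples were grouped by their tissue and diet labels, and those of the other tissues were left out. RNA (mirVana kit) was made into small RNA libraries with Illumina protocols. The authors filtered reads with CASAVA 1.8, trimmed and aligned them to bovine precursors in miRBase with sRNAbench, allowing mismatches and several mappings per read, and deposited CPM of each miRNA, although the study calls these files raw counts. Near-identical miRNAs can therefore share reads. Every deposited CPM was a whole number of reads within 0.01, which gave the depth of each sample (937556 to 14328839).

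Members, lists and tests were chosen with earlier results of these data known. All 306 miRNAs listed in both tissues passed the filter on low values (above 1 CPM in over 9 samples of at least 1 tissue) and were fitted with limma 3.58.1 (trend, R 4.3.3) on log2(CPM + 1) with tissue, diet and their interaction, and p-values were adjusted by Benjamini-Hochberg over all 306 at 0.05. The 12 largest called differences in each direction (mean of at least 10 CPM), the 10 most abundant miRNAs, the members of the lists, 5 diet-dependent miRNAs and 5 a tissue listed in 1 tissue only are named. edgeR 4.0.16 and DESeq2 1.42.0 on the recovered reads, other scalings, pseudocounts, filters and sample sets were alternatives. On simulated data for this comparison (306 miRNAs), limma recovered 56 of 60 tissue changes of 1 log2 unit, called 2 of 216 unchanged miRNAs, and recovered 20 of 30 diet-dependent changes of 2 log2 units. The simulation gave each miRNA the same spread in both tissues and all diets, which these data do not have, so its rates may not hold here. The labels number samples within a group, and p-values measure the spread between these samples. Figures were drawn with matplotlib. No mature sequences are printed, since none were used here.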

Additional observations from a re-analysis of the deposited data

Results flagged for a closer look

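Among the 180 groups of 6 samples examined, 35 held a sample far from the others. The rule used flags about 5% of groups by chance if values are normally distributed and groups are independent. It was applied to CPM without a log scale, and the same sample could be far in several groups, as liver alfalfa hay 2 was. The 5% is therefore no chance rate for these groups, and the 35 only describe where single samples stood apart. Liver alfalfa hay 2 was far above the other livers on alfalfa hay for miR-205 (1525 CPM), miR-200a (334), miR-200b (65.2), miR-200c (166), miR-141 (1038), miR-183 (34.0), miR-182 (367), miR-375 (475) and miR-10b (3938). Liver rice straw 6 was high for miR-192 (188688), miR-365-3p (560), miR-2285f (646) and miR-455-3p (275) and low for miR-128 (84.1). Other high livers were rice straw 1 for miR-200c (32.4) and miR-190a (7.98), alfalfa hay 4 for miR-190a (17.1), and rice straw 2 (2753) and corn stover 5 (6005) for miR-10b.

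In mammary gland, rice straw 3 was high for miR-122 (48.5 CPM), miR-200c (11616) and miR-200a (15723). For miR-122, alfalfa hay 4 (34.8) and corn stover 5 (29.7) also stood above the others of their diet. Rice straw 2 was high for miR-874 (45.8) and miR-96 (122), corn stover 6 for miR-483 (2.74) and miR-455-3p (30.8), rice straw 5 for miR-182 (8777), and rice straw 1 (282) and alfalfa hay 4 (597) for miR-190a. Alfalfa hay 1 was high for miR-10b (235766) and miR-183 (2051) and low for miR-29c (589) and miR-455-3p (3.20).

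The difference between the tissues depended on diet for 23 miRNAs by limma's interaction test. The adjusted p was 0.0272 for miR-128, miR-628, miR-15a, miR-362-3p, miR-29c, miR-150, miR-28, miR-144, miR-146b and miR-29a. It was 0.0333 for miR-484, 0.0357 for miR-502a, 0.0381 for miR-15b and 0.0388 for miR-27a-3p. It was 0.0393 for miR-497, miR-429, miR-6119-3p, miR-502b and miR-126-3p, 0.0408 for miR-22-3p, and 0.0422 for miR-194, miR-499 and miR-106b.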

How the results depend on the processing

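Of 4501 values for 189 miRNAs under 24 alternatives, 280 lost their call, 166 gained one and 29 changed sign with a call in at least 1 fit. The other 4026 stayed on their side of the threshold, and sign changes of miRNAs called in neither fit were counted among them. They include the alternative without a filter, which repeats the main fit because all 306 miRNAs passed the filter. The count of miRNAs called between the tissues (204) was 181 to 199 when 1 replicate number was left out of every group, 116 within rice straw alone, 123 within alfalfa hay alone and 199 within corn stover alone. The count called by diet (23) was 4 with upper-quartile and 6 with TMM scaling, 13 and 35 with pseudocounts of 0.1 and 5, 40 with 1 weight a tissue, 62 without the shallowest sample of each tissue, 12 with edgeR, 43 with DESeq2, and 0 to 40 without 1 replicate number. Among alternatives chosen after seeing the data, it was 46 without the 3 shallowest mammary gland samples, 70 without mammary gland rice straw 3 and 60 without all 5 samples that stood apart. The cause was not tested.

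With a replicate block the counts were 204 and 23 and no call changed. The estimated correlation within blocks was -0.0005, so this fit was nearly the main fit and is no test of the pairing. The labels do not say whether a number marks the same cow in both tissues, so the main fit treated the samples as independent. Of 18 pairs with the same number, 11 had a correlation of deviations over 0.1 (median 0.13, range -0.22 to 0.32). In 7 of the 18 the liver sample correlated best with its own number among the 6 mammary gland samples of its diet. These values do not settle whether the numbers pair the tissues.

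Sign changes are listed only for miRNAs called in the main fit or in the alternative. With upper-quartile scaling these were miR-148a (0.047), miR-26b (0.25), miR-25 (0.10) and miR-2284z (0.36). Within rice straw alone they were miR-628 (0.57), miR-499 (0.050), miR-29b (0.19), miR-27a-3p (0.13) and miR-17-3p (0.18), and within alfalfa hay alone miR-222 (0.028). Within corn stover alone they were miR-26a (-0.46), let-7f (-0.28), miR-15a (-0.38), miR-885 (-0.17), miR-31 (-0.30), miR-142-5p (-0.0031), miR-150 (-0.80), let-7d (-0.38), let-7g (-0.56), miR-30d (-0.25), miR-30f (-0.42), miR-24 (-0.10), miR-17-5p (-0.46), miR-20a (-0.46), miR-106b (-0.71), miR-15b (-0.59) and miR-1185 (-0.13). For miR-26a the value was also -0.24 without the 3 shallowest mammary gland samples and -0.28 without all 5. At 1 CPM, the shallowest sample holds fewer than 3 reads, which limits what can be said of the scarcest miRNAs.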
